A study of Mus musculus with 35 samples.

Results

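The untreated libraries of mouse colon tumour organoids were described here: the 3 palmitic acid controls and the 12 carmofur controls, 15 of the 35 libraries of the series. They were chosen by their labels alone. In the labels, both groups are tumour organoids from colon, genotype AKP, grown in vitro with the treatment given as Control. AKP is in this field a usual name for tumour organoids with engineered alterations of cancer genes, Apc and Trp53 among them; the sources used here give neither the alleles nor the number of lines or clones, the age and sex of the source animals or the vehicle. The 20 treated libraries received palmitic acid, a saturated fatty acid (5 libraries in 2 batches), or carmofur, a ceramidase inhibitor (15 libraries). Each control group belongs to 1 experiment, so the experiment and the control group cannot be told apart in any difference below. Whether the libraries within a group are separate cultures is not stated, and p-values then measure only the spread between these samples, which may be technical.

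Intestinal tumour organoids are epithelial structures grown in a gel without stroma, immune cells or vessels. In healthy crypts, Lgr5-positive stem cells maintain the epithelium under WNT signals, whereas a regenerative or fetal-like state, marked by genes such as Clu, Anxa1 and Ly6a, appears after injury and has also been described in tumours. Baseline expression in untreated organoids is what any treatment is measured against.

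The palmitic acid controls had total counts of 762888 to 2511723 and the carmofur controls of 1663750 to 8124707 (exact permutation test, two-sided, p = 0.0132, Benjamini-Hochberg adjusted p = 0.0176 over 4 measures). At an equal depth of 762888 counts, 10737 to 11579 genes were expected to be detected in the palmitic acid controls and 9545 to 10735 in the carmofur controls (exact permutation p = 0.0044, the smallest this design can give, adjusted p = 0.00879). The 100 most abundant genes took 35.4% to 36.8% of the counts in the former and 31.0% to 33.3% in the latter (exact permutation p = 0.0044, adjusted p = 0.00879). Mitochondrially encoded genes took 5.50% to 5.92% and 4.64% to 6.41% (exact permutation p = 0.796). The shallowest libraries of each group were palmitic acid control 1 and carmofur control 1. In a principal component analysis of the 11447 genes tested, carmofur control 1 stood apart on the first component, which held 12.1% of the variance. Palmitic acid control 1 stood apart on the second component (10.4%) and carmofur control 9 on the third (9.55%). Library numbers in the labels put the carmofur controls in 4 sets of 3 consecutive numbers, and these sets are not stated to be batches.

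The epithelial markers were present in every control library. Levels are given here as counts per kilobase of merged exons, scaled to a common sum per library of 1000000, so that genes can be compared with each other. Epcam, the epithelial adhesion molecule (chr17:87635979-87651129, mm10), had levels of 121, 186 and 200 in the palmitic acid controls and of 116, 284 and 359 (lowest, median, highest) in the carmofur controls. For Krt18, a keratin of simple epithelia (chr15:102028180-102032027), the levels were 343, 343 and 362 against 278, 386 and 555. Its partner Krt8 (chr15:101996698-102004482) lay at 264, 235 and 168 against 166, 261 and 424. The groups overlapped for all 3 genes, and none passed the test between them (edgeR quasi-likelihood adjusted p = 0.501 for Epcam, 0.999 for Krt18 and 0.958 for Krt8). Krt19, a keratin of ductal and progenitor epithelium, did: its levels of 327, 334 and 330 all lay below the 485 to 1006 (median 581) of the carmofur controls.

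Among intestinal identity genes, the cadherin Cdh17 and the nuclear receptor Hnf4a were found in all 15 libraries. Both were chosen after their values were seen. Hnf4a had levels of 17.2, 16.3 and 12.4 and of 10.7 to 31.4 (median 19.7). The hindgut transcription factor Cdx2 was low, at 3.98, 6.16 and 6.46 and at 0.673 to 13.97 (median 4.72). Markers of absorptive colonocytes were unevenly detected. Car1, an enzyme of colon epithelium, had levels of 748, 773 and 678 and of 250 to 913 (median 613), and Car2 had 1934, 2265 and 2191 and 1921 to 2925 (median 2388). The carbonic anhydrase Car4 and the chloride exchanger Slc26a3, both known from colon, had no count in any of the 15 libraries, and the water channel Aqp8 had 2 counts in 1 library. Over the 20 absorptive markers, of which 18 had a count, the summed level was 2772 to 3130 in the palmitic acid controls and 2563 to 3690 in the carmofur controls.

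The crypt-base stem cell marker Lgr5 was near the limit of detection, with levels of 0.219, 1.42 and 1.12 in the palmitic acid controls and 0.260, 1.74 and 6.28 in the carmofur controls. Olfm4, another stem cell marker, had no count in any of the 15 libraries, where 3 counts in a library equal 0.369 to 3.93 counts per 1000000 counts (CPM). Ascl2, a WNT-dependent regulator of stem cells, had a higher length-normalised level than Lgr5 in both groups, at 128, 45.5 and 35.5 and at 7.87 to 80.0 (median 35.9). Markers of the regenerative state differed among themselves by orders of magnitude. S100a6, a calcium-binding protein, had levels of 4618, 3501 and 3497 and of 2031 to 3171 (median 2770). The surface antigen Ly6a had levels of 2586, 2521.1 and 2420 and of 1613 to 2398 (median 1954). Anxa1, an annexin, reached 1684, 1917 and 2009 and 1318 to 2024 (median 1545). Clu, which names the revival stem cell, had levels of only 1.96, 6.28 and 0.895 and of 0.248 to 20.3 (median 3.82). Summed over the 22 genes of the revival and fetal-like list, the level was 10153 to 11037 in the palmitic acid controls and 7794 to 9252 in the carmofur controls, and most of it came from S100a6, Ly6a, Anxa1 and Anxa2.

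**Figure D1:**
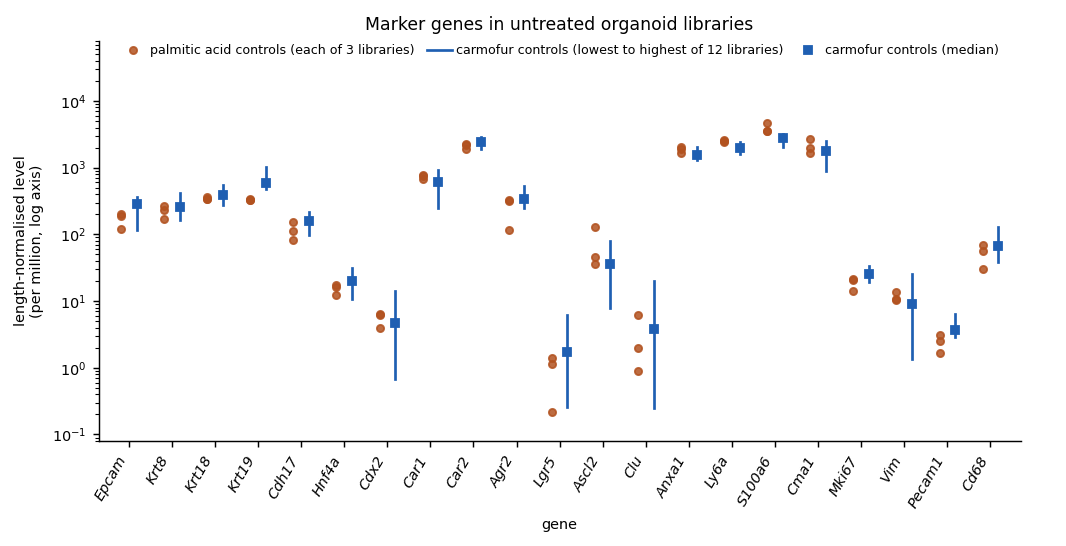
Length-normalised level of 21 marker genes on a log axis; points are the 3 palmitic acid controls, and lines with squares give the range and median of the 12 carmofur controls. Anxa1, Ly6a, S100a6 and Cma1 lie above the keratins and Epcam, and Lgr5, Clu and Cdx2 lie near the bottom of the axis.

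Secretory and tuft cell markers were mostly low or not detected. The goblet cell mucin Muc2, the endocrine granule protein Chga and the tuft cell kinase Dclk1 had no count in any of the 15 libraries; 4 of 16 goblet, 11 of 16 enteroendocrine and 7 of 13 tuft markers were at 0 throughout. Agr2, a secretory-cell disulfide isomerase of the goblet list, had levels of 115, 314 and 330 and of 245 to 532 (median 338). Markers of other cell types were low. The summed level of 14 mesenchymal markers was 17.3 to 24.1 in the palmitic acid controls and 5.54 to 30.0 in the carmofur controls, with 8 of the 14 at 0 throughout, Col1a1, Col1a2 and Pdgfrb among them. For 17 immune markers the sums were 30.4 to 70.1 and 39.2 to 130, with 10 at 0, Cd3e and Adgre1 among them, and nearly all of the sum was the lysosomal protein Cd68. For 12 endothelial and blood markers they were 2.53 to 3.39 and 2.95 to 6.73, with Cdh5 and Kdr at 0.

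Cma1, a chymase known from mast cells (chr14:55941451-55944675), had levels of 1645, 2703 and 1969 in the palmitic acid controls and 905 to 2494 (median 1798) in the carmofur controls, rank 81 among protein-coding genes. The mast cell genes Cpa3, Tpsab1, Tpsb2 and Mcpt2 had no count in any of the 15 libraries. Xist, the RNA that coats the inactive X chromosome (chrX:103460366-103483254), had levels of 13.8, 21.1 and 27.99 and of 5.90 to 19.5 (median 9.19), while the Y-linked genes Ddx3y, Eif2s3y, Usp9y and Sry had no count in any control library. This held in both groups.

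The tumour suppressor Apc lay at 1.68, 2.38 and 0.954 and at 0.336 to 4.25 (median 2.34), and Trp53 at 1.67, 1.72 and 6.08 and at 0.0940 to 8.82 (median 3.42). The groups overlapped for both, neither passed the test (adjusted p = 0.999 for Apc and for Trp53), and a count per gene does not show which allele or exon it came from. The proliferation marker Mki67 had levels of 20.8, 21.6 and 13.99 and of 19.5 to 33.0 (median 25.6).

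Ribosomal protein genes made up much of the most abundant nuclear protein-coding transcripts: among the 20 highest levels were those of Rpl41, Rpl32, Rps14, Rplp0, Rpl23a, Rpl38, Rps29, Rps18, Rps16 and Rps6. Others among the 20 were Ptma, Mif, the mitochondrial ADP/ATP carrier Slc25a5, lactate dehydrogenase Ldha, the calmodulin gene Calm2, the complex III subunit Uqcr10, the peroxidase Prdx1 and the predicted genes Gm2000 and Gm11808. Rpl4 varied least over the 15 libraries among protein-coding genes with a mean of at least 100 CPM, with a coefficient of variation of 6.65%, followed by Atpif1, Sdhb, Ndufa4 and Cdc42 at 6.99% to 7.89%.

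The control groups differed in 375 of 11447 genes tested, 3.28% of them (edgeR quasi-likelihood test, adjusted p under 0.05). Relative to the palmitic acid controls, 142 genes were higher (1.24%) and 233 lower (2.04%) in the carmofur controls. CPM are scaled by TMM, a trimmed mean of ratios between libraries, and log2 fold changes are carmofur controls minus palmitic acid controls throughout. The median log2 fold change over all genes tested was 0.14; scaled by library size it was 0.22, with 208 genes higher and 207 lower, and by limma-voom it was -0.17. In 495 tested genes (4.32%) the 2 groups of libraries did not overlap. Without palmitic acid control 1, the shallowest library, 217 genes were called (58 higher, 159 lower), of which 205 were among the 375. In a limma fit with the library set as a correlated group, called the correlated fit below, 25 genes were higher and 152 lower. Each set of 3 carmofur controls taken alone gave 248 to 449 calls against the same 3 palmitic acid controls.

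Cytosolic ribosomal proteins were the group with the most calls. These small basic proteins build the 40S and 60S subunits, and their mRNAs are known for a pyrimidine-rich start. The list is partial, with Rpl41, Rpl23a and Rps29 among the genes left out. Of 46 tested members, 32 were lower in the carmofur controls and none was higher, against 2.04% of all genes. That share is over genes with a median of 13.8 CPM. The median log2 fold change of the list was -0.51, against 0.14 for all genes. The summed level of the listed members was 123679 to 135380 in the palmitic acid controls and 89864 to 107294 in the carmofur controls, without overlap. Rps4x (chrX:102184941-102189394) stood at 4140, 4282 and 3569 CPM against 912 to 1447 (median 1136). This was a log2 fold change of -1.78 (SE 0.11, adjusted p = 6.92e-12), with no overlap. Rps24 (chr14:24487125-24496959) stood at 8192, 1745 and 7687 CPM against 1142 to 1716 (median 1279), so that palmitic acid control 2 lay close to the carmofur controls (log2 fold change -2.12, SE 0.26, adjusted p = 1.32e-04). Its call was lost with limma-voom and with each library set taken alone. Rpl32 stood at 5166, 4169 and 4337 CPM against 2472 to 2909 (log2 fold change -0.77, SE 0.08, adjusted p = 1.70e-07). Members that did not pass included Rpl4 (-0.03), Rpl3 (-0.13) and Rps19 (0.12). The list's median stayed below 0 in all alternatives: it ran from -0.66 to -0.40 and 2 to 35 members were lower, the 2 where a change of at least 1 on the log2 scale was required; with the replicate number as a block, 1 member was higher and 30 lower. With limma-voom its median was -0.50, against -0.17 for all genes. Without palmitic acid control 1, 23 members were lower, without it and carmofur controls 1 and 9, 24, and in the correlated fit, 24.

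The start sites of 3 ribosomal protein genes that were lower and of 2 that did not pass are shown because the mRNAs of this group are known for their start, so that members that passed can be set beside members that did not. Each is the 40 bases centred on the RefSeq start (GRCm38.p6), on the gene's strand, with the longest unbroken run of C and T in capitals. The first 3 were lower in the carmofur controls, Rpl15 only as counted without its pseudogenes, and the last 2 did not pass.
Rpl15, chr14:18270967-18271006 (minus): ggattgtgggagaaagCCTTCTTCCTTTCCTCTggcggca
Rpl14, chr9:120571497-120571536 (plus): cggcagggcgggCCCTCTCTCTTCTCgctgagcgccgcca
Rps18, chr17:33955646-33955685 (minus): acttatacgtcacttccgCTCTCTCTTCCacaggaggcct
Rpl7a, chr2:26910787-26910826 (plus): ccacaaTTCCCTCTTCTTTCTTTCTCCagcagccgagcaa
Rpl35, chr2:39005112-39005151 (minus): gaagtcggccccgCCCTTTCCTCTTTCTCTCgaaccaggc
A run of at least 8 was present in 16 of 34 ribosomal protein genes with an entry (47.1%) and in 15.9% of all 27025 genes with an entry. It was present in 9 of 23 members that were lower and in 7 of 11 that were tested and did not pass. The longest runs shown belong to Rpl7a and Rpl35, whose log2 fold changes were 0.07 and -0.09.

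**Figure D2:**
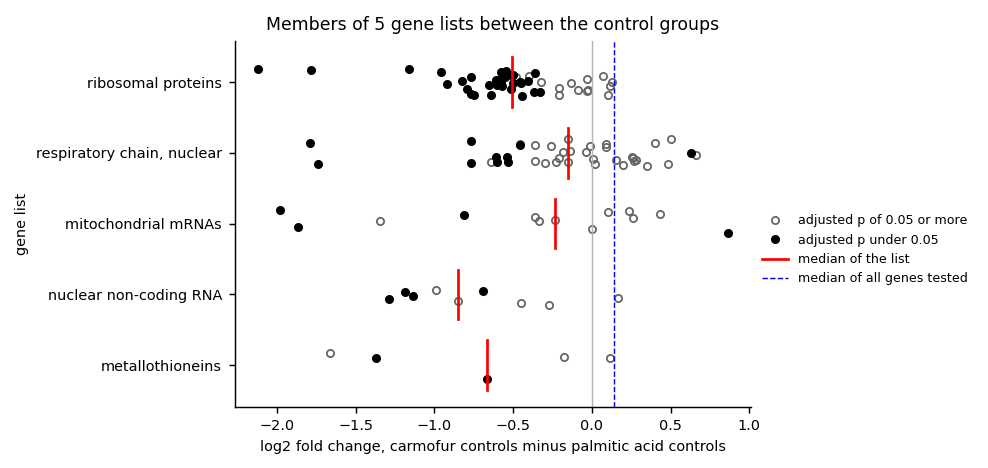
Log2 fold change of each tested member of 5 gene lists between the control groups, carmofur controls minus palmitic acid controls; filled points passed an adjusted p of 0.05, red bars are list medians and the dashed line is the median of all genes. Ribosomal protein genes lie mostly left of 0, with a median of -0.51 and 32 filled points of 46.

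Ribosomal protein genes have many processed pseudogenes, near-identical copies that can share their reads, and the pseudogenes differed more than the genes. Rps16-ps2 (chr5:129128077-129128517), a pseudogene of Rps16, had no count in any of the 8 libraries of the palmitic acid experiment and counts in all 27 of the carmofur experiment, with 1066 to 4139 counts in the carmofur controls. Set against a floor of 3 counts over the 3 palmitic acid controls, it was at least 1061-fold higher. Of the gene and its copies together, pseudogenes held 0.159% in the palmitic acid controls and 18.2% in the carmofur controls. For the pseudogenes of Rpl15 these shares were 1.58% and 30.7%, for those of Rpl5 34.6% and 57.7%, and for those of Rps23 14.2% and 38.9%. Summed with their copies, Rps16, Rpl15, Rpl5 and Rps23 did not pass the test (adjusted p = 0.513, 0.968, 0.999 and 0.106), whereas 28 of the 32 lower genes still did, Rps4x (-1.79) and Rps24 (-2.12) among them. The median of the list was -0.51 with the copies summed too. What set the pseudogene counts apart was not tested, and the sources used here do not give the read length of each experiment.

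In all, 12 called genes had no count in any palmitic acid control, 9 of them pseudogenes, and 5 of the 12 had no count in all 8 libraries of that experiment and counts in all 27 of the other. Those 5 were Rps16-ps2, Gm13772, Gm20656, Gm44813 and Mir124-2hg. In the other direction, 4 called genes had no count in any carmofur control, 2 of them pseudogenes. The pseudogene Tcea1-ps1 and a second identifier of Snhg4, whose gene model overlaps Matr3, had none in all 27 libraries of the carmofur experiment, and counts in 7 of the 8 others.

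Most respiratory chain subunits did not pass, and those that did were mostly lower. Of 39 nuclear-encoded members, 9 were lower and 1 was higher, with a median of -0.15; 29 did not pass. Of all genes, 2.04% were lower and 1.24% higher. The cytochrome c oxidase subunit Cox8a stood at 435, 337 and 315 CPM against 74.4 to 189 (median 103), without overlap (log2 fold change -1.74, SE 0.19, adjusted p = 6.54e-07). The ATP synthase subunit Atp5d stood at 241, 258 and 291 CPM against 47.5 to 125 (median 66.0) (-1.79, SE 0.23, adjusted p = 4.48e-06). The higher member was the ATP synthase subunit Atp5a1, at 240, 312 and 269 CPM against 359 to 490 (0.63, SE 0.14, adjusted p = 0.00451). Without palmitic acid control 1, and also in the correlated fit, 4 members were lower and none was higher. Among 13 mitochondrially encoded mRNAs, mt-Nd1, mt-Nd3 and mt-Nd6 were lower and mt-Atp8 was higher; without palmitic acid control 1, and also in the correlated fit, 1 was lower and none higher. mt-Nd1 stood at 5521, 4954 and 4555 CPM against 1959 to 3919 (median 2707), a log2 fold change of -0.81 (SE 0.15, adjusted p = 5.55e-04).

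Of 9 tested members of a partial list of nuclear-retained and other non-coding RNAs, 4 were lower in the carmofur controls, Malat1, Neat1, Xist and Gas5, against 2.04% of all genes. None was higher, and the list's median was -0.85. Outside the list, the mitochondrial ribosomal RNAs mt-Rnr2 (-1.66) and mt-Rnr1 (-1.49) were also lower, whereas the long non-coding RNAs Gm44813 and Mir124-2hg were higher. Malat1 (chr19:5795690-5802672), a nuclear speckle RNA, stood at 9027, 8100 and 5842 CPM against 1727 to 4662 (median 2816), without overlap (log2 fold change -1.29, SE 0.23, adjusted p = 0.00367). It also differed among the library sets of the carmofur controls, with set means of 2214 to 4136 CPM (edgeR quasi-likelihood F test among sets, adjusted p = 0.0233). Xist stood at 147, 226 and 313 CPM against 62.6 to 183 (median 88.0), with overlap (-1.14, SE 0.26, adjusted p = 0.00762). Without palmitic acid control 1, 1 of the 9 was called, Xist, and Malat1 lost its call. Without palmitic acid control 2, without control 3 or in the correlated fit, 2 of the 9 were called.

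Of 5 tested metallothioneins, zinc- and copper-binding proteins, Mt4 and Mt2 were lower, against 2.04% of all genes; Mt2 (-0.66, adjusted p = 0.0164) lost its call without any one of the palmitic acid controls and in the correlated fit. Mt4 (chr8:94137197-94139031) stood at 988, 946 and 847 CPM against 278 to 487 (median 361), without overlap (log2 fold change -1.37, SE 0.13, adjusted p = 6.51e-08).

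The largest falls of single genes came from several functions. Txn1, thioredoxin, the cell's main disulfide reductase (chr4:57943373-57956411), stood at 4028, 3510 and 3518 CPM in the palmitic acid controls. The carmofur controls lay at 492 to 796 (median 704), a 5.48-fold difference without overlap (log2 fold change -2.45, SE 0.11, adjusted p = 8.10e-15). Lsm4, a subunit of the ring that binds U6 RNA and decaying mRNA (chr8:70673248-70678752), stood at 440, 875 and 918 CPM against 33.7 to 107 (median 61.8), an 11.2-fold difference (-3.48, SE 0.23, adjusted p = 3.25e-11). Bzw2, a regulator of translation initiation (chr12:36091835-36158080), stood at 630, 966 and 976 CPM against 118 to 227 (median 181), without overlap (-2.24, SE 0.15, adjusted p = 3.25e-11). All 3 passed in every one of the 37 alternatives, as did Rps4x and the lipid-droplet dehydrogenase Hsd17b11 (-2.53). The other falls of the 12 largest were the linker histone H1f5 (-3.98), Slc7a14 (-3.23), Cmip (-2.71), the chromatin remodeller Smarca4 (-1.99), mt-Nd3 (-1.98), Ubap2 (-1.93) and Pdap1 (-1.84), together with Rps24. H1f5 stood at 99.96, 22.1 and 28.3 CPM against 0 to 9.34, and its call was lost without palmitic acid control 1, as were those of Cmip, Smarca4 and mt-Nd3. Without control 2 those of Slc7a14, Cmip and mt-Nd3 were lost.

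The 12 largest rises were smaller. Synrg, which binds the AP-1 adaptor of clathrin coats (chr11:83964428-84044578), stood at 36.0, 23.8 and 22.1 CPM against 100.3 to 178 (median 117), without overlap (log2 fold change 2.27, SE 0.27, adjusted p = 2.14e-06). Tug1, best known as a long non-coding RNA and listed here as protein-coding (chr11:3639785-3649673), stood at 48.0, 32.5 and 28.8 CPM against 105 to 197 (median 143) (2.05, SE 0.25, adjusted p = 2.34e-06). Spcs3, a signal peptidase subunit, stood at 90.6, 155 and 154 CPM against 253 to 443 (median 331) (1.34, SE 0.20, adjusted p = 5.32e-05). The others were the DNA glycosylase Ogg1 (2.65), the apoptotic nuclease Dffb (2.24), Rsbn1 (2.21), Tmem69 (1.84), the selenoproteins Selenow (1.51) and Selenot (1.38), the splicing factor Mbnl1 (1.43), the kinase Stk38 (1.34) and the actin regulator Abi1 (1.33). Ogg1 lay at 1.33 to 4.79 CPM in the palmitic acid controls, near the 1.19 to 3.93 CPM that 3 counts represent there, and its call was lost without any one of those 3 libraries, as was that of Selenot. Rsbn1 lost its call without palmitic acid control 1 or 3. In the correlated fit 10 of the 12 rises lost their call, all but Tug1 and Spcs3.

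**Figure D3:**
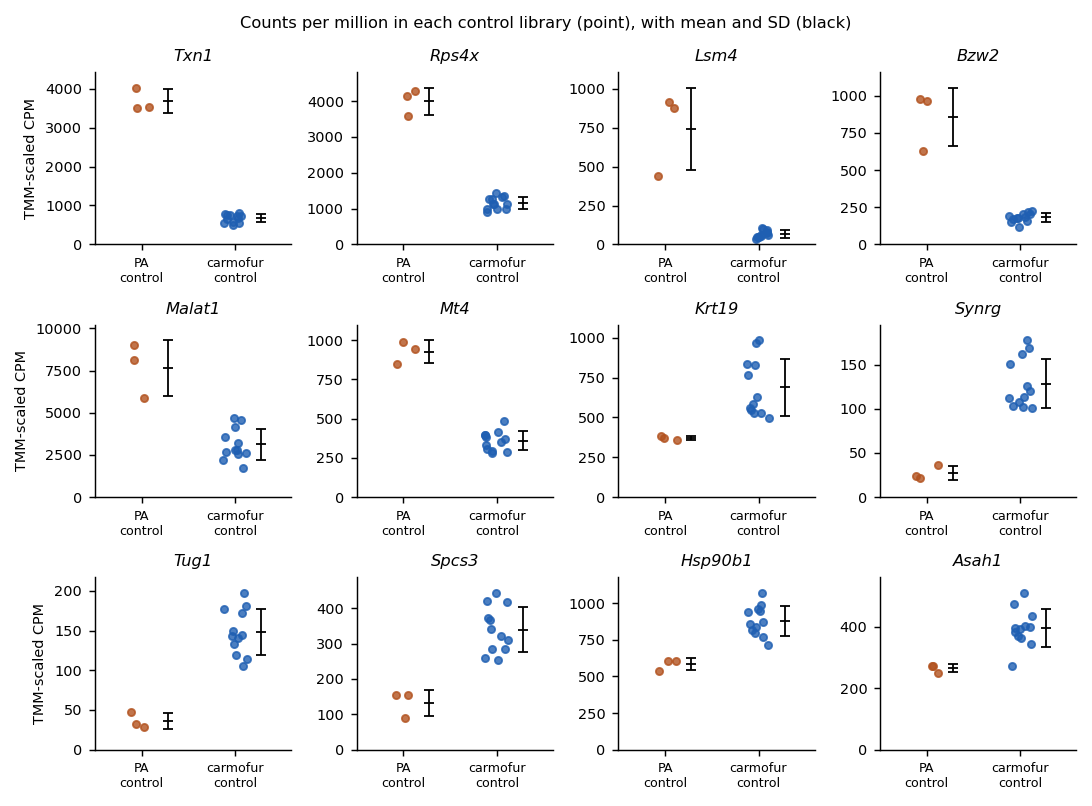
TMM-scaled CPM of 12 genes in each palmitic acid control (PA control, n = 3) and each carmofur control (n = 12), with mean and SD in black; each axis starts at 0. The first 6 genes are lower and the last 6 higher in the carmofur controls, and the points of the groups touch only for Asah1.

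Krt19 (chr11:100140810-100148665) was the only one of 12 epithelial markers to pass, at 360, 371 and 381 CPM against 495 to 985 (median 607), without overlap (log2 fold change 0.89, SE 0.19, adjusted p = 0.00478); it did not pass without palmitic acid control 1 or in the correlated fit. In the revival and fetal-like list, 3 of 20 tested members were lower, against 2.04% of all genes: S100a6 (-0.64, SE 0.11, adjusted p = 2.92e-04), Ly6a (-0.49, SE 0.11, adjusted p = 0.00451) and Anxa2 (-0.38, SE 0.09, adjusted p = 0.0138). None was higher, and the list's median was -0.0013. Anxa2 lost its call without palmitic acid control 2 or without control 3, and Ly6a lost its call in the correlated fit. Anxa1 (-0.35, adjusted p = 0.169) and Clu (0.90, adjusted p = 0.985) did not pass.

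Asah1, the lysosomal acid ceramidase (chr8:41340197-41374773), stood at 251, 271 and 273 CPM against 272 to 510 (median 395), the lowest carmofur control falling within the palmitic acid range (log2 fold change 0.57, SE 0.15, adjusted p = 0.0291). Its call was lost without any one of the 3 palmitic acid controls and in the correlated fit. It was the only called gene of 32 tested in the sphingolipid list, whose median was 0.35. Endoplasmic reticulum chaperones gave 3 higher of 23, Hsp90b1 (0.59, SE 0.12, adjusted p = 0.00277), Pdia6 (0.55, adjusted p = 0.0156) and Ssr1 (0.89, adjusted p = 0.0282); 1 was called without palmitic acid control 1 and 0 in the correlated fit. Of 30 S-phase genes, thymidylate synthase Tyms (0.69) and cyclin Ccne2 (1.17) were higher; both calls were lost without palmitic acid control 1 and in the correlated fit. Of 32 glycolysis and hypoxia genes Eno1 (0.63) and Aldoa (0.66) were higher; both calls were lost without any one of the palmitic acid controls and in the correlated fit. The share called in these lists, 1 to 3 genes each, is to be read against 1.24% of all genes called higher. With edgeR, no member passed among 19 WNT targets, 22 p53 targets, 14 YAP targets, 17 MAPK feedback genes, 19 interferon response genes or 30 G2/M genes. At an unadjusted p under 0.05 there were 4, 3, 1, 4, 0 and 5 members. DESeq2 called 2 WNT targets and 1 p53 target, limma-voom called 1 p53 target, and neither called a member of the other 4 lists.

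The 12 carmofur controls were not uniform. Across their 4 library sets, 82 of 11043 genes differed (0.743%, edgeR quasi-likelihood F test with 3 degrees of freedom), and 21 did so without carmofur controls 1 and 9. Cma1 had the smallest p: it stood at 512 to 649 CPM in set 1, 624 to 895 in set 2, 1353 to 1421 in set 3 and 1404 to 1470 in set 4 (adjusted p = 6.79e-05). The sets 3 and 4 did not overlap with the sets 1 and 2. The palmitic acid controls stood at 1062, 1765 and 1338 CPM, above sets 1 and 2, with 2 of them below and 1 above every library of sets 3 and 4. Rnf186, a ubiquitin ligase of colon epithelium (chr4:138967112-138968360), ran the other way. It stood at 275 to 433 CPM in set 1, 260 to 754 in set 2, 77.8 to 87.9 in set 3 and 206 to 238 in set 4 (adjusted p = 1.27e-04), with 162 CPM as the palmitic acid control mean. Car1 was lowest in set 2, at 166 to 226 CPM, and highest in set 3, at 616 to 673 (adjusted p = 1.23e-04). Transferrin, Trf, was highest in set 2, at 186 to 259 CPM, and lowest in set 3, at 3.53 to 12.3 (adjusted p = 1.08e-04). The translation initiation factor Eif2s2 and the mitochondrial mt-Cytb were higher in both sets 3 and 4 than in either of the others, and mt-Nd1 and mt-Atp6 were highest in set 3. Of the 82 genes, 14 were higher in every library of sets 1 and 2 than in any of sets 3 and 4, and 7 the reverse. The largest number, 47, had their highest mean in set 1. There were 12 genes among both the 82 and the 375, which is 14.6% of the former and 3.20% of the latter. Set 3 differed also in its share of mitochondrially encoded counts, 6.28% to 6.41% against 4.64% to 5.79% in the other sets; its part in these differences was not tested.

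**Figure D4:**
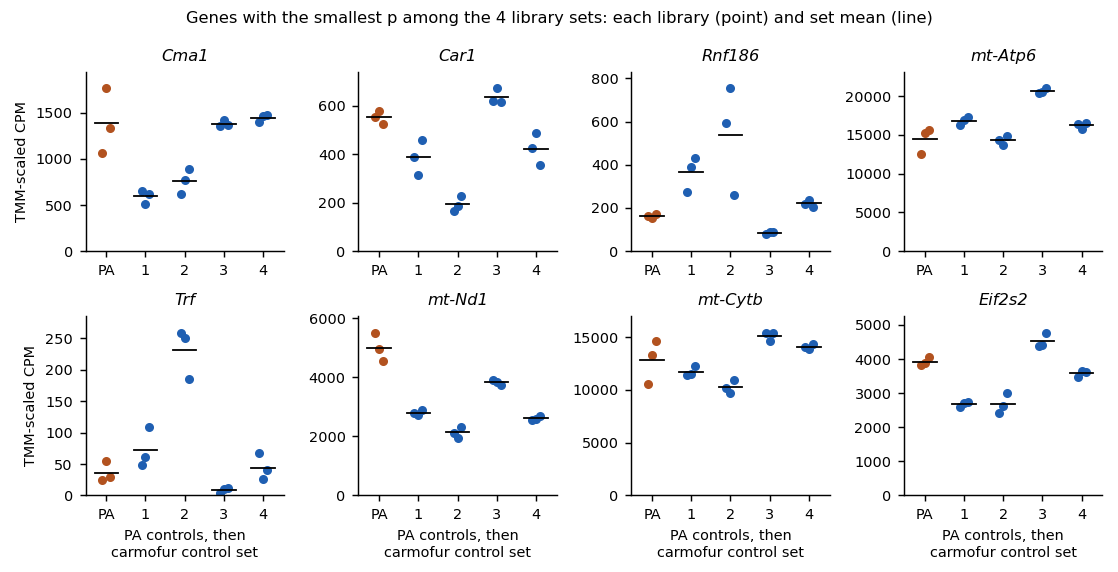
TMM-scaled CPM of the 8 genes with the smallest p among the library sets, for the palmitic acid controls (PA) and the 4 sets of carmofur controls; points are libraries, lines are means of 3 and each axis starts at 0. Cma1 lies at 512 to 895 CPM in sets 1 and 2 and at 1353 to 1470 in sets 3 and 4.

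The treated libraries of the same experiments give a second comparison that shares no library with the controls, although treatment and experiment cannot be told apart in it. Carmofur-treated against palmitic acid-treated libraries differed in 1211 of 11314 genes (10.7%), 671 higher (5.93%) and 540 lower (4.77%); scaled by library size the split was 1051 and 358. Of the 142 genes higher in the carmofur controls, 85 were also higher in this comparison and none was lower; these 85 are 59.9% of the former and 12.7% of the 671. Of the 233 genes lower in the carmofur controls, 226 were tested, 161 were also lower and 2 were higher; the 161 are 69.1% of the 233 and 29.8% of the 540. In 38 of the 142 and 107 of the 233, the 8 libraries of the palmitic acid experiment did not overlap with the 27 of the carmofur experiment, against 0.463% (higher) and 1.02% (lower) of all 11447 genes. These libraries include the controls by which the 142 and 233 were called, so the choice of genes itself raises both shares. Txn1 (log2 fold change -2.88, adjusted p = 4.08e-22), Lsm4 (-4.11), Rps4x (-2.22), Synrg (3.36) and Krt19 (1.09) were among those called in the same direction. Of the ribosomal proteins, 42 of 46 were lower, with a median of -0.87. The nuclear non-coding list had 4 of 9 lower, but Malat1 was not among them (-0.47, adjusted p = 0.410). Ly6a (0.05, adjusted p = 0.877), S100a6 (-0.22, adjusted p = 0.143) and Srebf2 (0.05, adjusted p = 0.942), the sterol-responsive transcription factor, were lower between the controls and did not pass between the treated groups.

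**Figure D5:**
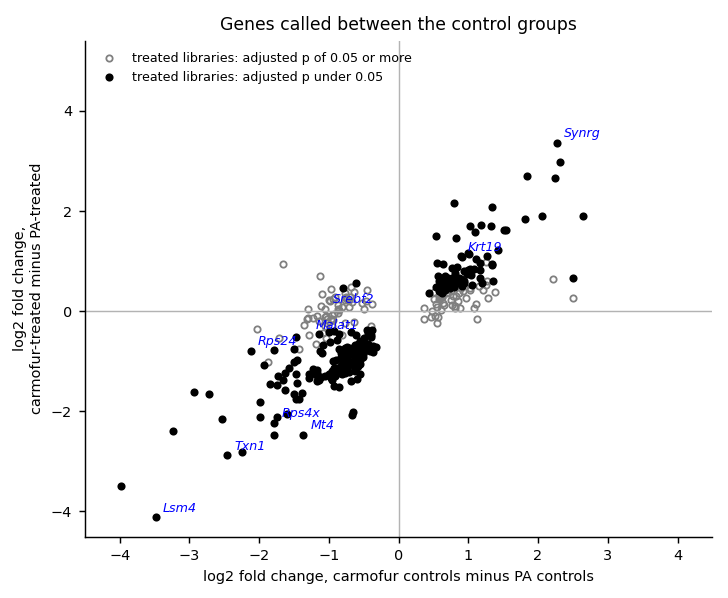
Log2 fold change between the control groups (x axis) and between the treated groups (y axis), each carmofur experiment minus palmitic acid (PA) experiment, for the 351 called genes within 4.5 on both axes; 17 tested genes lie outside. Filled points passed an adjusted p of 0.05 between the treated groups and lie mostly at lower left and upper right.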

How the data were processed

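Polyadenylated RNA was made into strand-specific libraries, per the labels' protocols. The authors deposited expected counts per gene, rounded to whole numbers, in 1 table of 54354 genes, and the submitters' processing notes name Salmon 1.3.0 and the build mm10. The sources used here do not give the annotation, read length or transcript-to-gene step. Counts were used as deposited. Genes without a symbol (1243) held 0.0216% of the counts. Positions and exon lengths came from GENCODE M21, and gene types were those deposited with the counts. Start sites came from RefSeq.

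Differences were tested with edgeR 4.0.16 in R 4.3.3 (TMM scaling, default expression filter, robust quasi-likelihood F test, Benjamini-Hochberg over all genes tested, threshold 0.05) on the 15 controls, the 12 carmofur controls and the 20 treated libraries separately. Standard errors are the log2 fold change divided by the square root of F. Scripts were tested on simulated data. DESeq2 1.42.0 and limma 3.58.1 were alternatives, with other scalings, filters, library sets, left-out libraries, read-sharing genes summed (minimap2 2.31 alignments) and offsets for length and GC content; the last 2 were added after seeing the data, as was leaving out the libraries that lead the principal components. Library measures were compared by exact permutation tests. No pair of libraries of a control group agreed within counting error (chi-square test).

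The members and the 42 gene lists were chosen with earlier results of these data known. Named genes are the 12 largest rises and falls (at least 20 CPM in the higher group, groups not overlapping, protein-coding, with a name), genes fixed by name, in each list the members of smallest p (at most 4), the 20 highest levels, the 8 lowest p among library sets and the 5 least variable genes; others are said to be chosen after their values were seen or stand for a read-sharing or all-or-none pattern. Not every list is described. Some genes that the rule names are not reported here.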

Additional observations from a re-analysis of the deposited data

How the results depend on the processing

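Between the control groups, the 375 calls became 658 with limma-voom and quality weights, 1097 without an expression filter, 27 where a log2 change of at least 1 was tested, 177 (25 higher, 152 lower) with the library set as a correlated group, 248 with library set 2 as the only carmofur controls, and 217 without palmitic acid control 1 and carmofur controls 1 and 9. Leaving out 1 library at a time gave 217 to 405. Replicate numbers did not pair the control groups (correlations of same-numbered deviations of 0.0159, -0.00927 and 0.00757). With the replicate block 368 genes were called, in a fit that rests on palmitic acid controls 1 to 3 and carmofur controls 1 to 3. Among the library sets, the 82 calls became 369 with DESeq2, 188 with limma-voom, 292 without a filter and 21 without carmofur controls 1 and 9, and 40 to 155 when 1 library was left out, the highest without carmofur control 6. Between the treated groups, the 1211 calls became 2370 with limma-voom, 2476 without a filter, 637 with palmitic acid batch 1 alone and 428 with batch 2 alone, and 939 to 1282 when 1 library was left out. With the carmofur controls averaged within sets, total count, genes expected and the share of the top 100 genes each gave an exact permutation p of 0.0571, the smallest that 4 against 3 allows. For 175 genes followed through 37 alternatives, 58 of them called between the control groups, no call reversed. Of these 58, 51 lost their call in at least 1 alternative. Over the 6288 values of the 175 genes, 293 lost a call, 126 gained one, and 104 changed sign in genes called in neither. The cause was not tested. With 762888 counts in the shallowest library, 3 counts equal 3.93 CPM there, which limits what can be seen of genes with low counts.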

Other observations

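A few secretory and endocrine genes had higher levels in set 4 than in the other carmofur controls; they were chosen after their values were seen. Tff3, a goblet cell trefoil peptide, had length-normalised levels of 73.0, 58.8 and 40.7 in the 3 libraries of set 4 and no count in the other 9 carmofur controls, and 4.56, 4.24 and 26.5 in the palmitic acid controls. Lyz1, the Paneth cell lysozyme, had levels of 8.27, 15.2 and 10.2 in set 4 and no count in the other 12 control libraries. The gut hormone Pyy had levels of 9.63, 13.7 and 9.59 in set 4 and a count in 1 other control library, carmofur control 6. Itln1, an intelectin of goblet cells, ran from 67.2 to 111 in set 4 and from 8.58 to 58.8 in the other carmofur controls, and Reg4 from 52.0 to 93.1 and from 0 to 29.9. Spink4 was less uniform, at 43.8, 0.980 and 38.6 in set 4 and at 14.3 in carmofur control 6. None of these genes passed the test among the sets (edgeR quasi-likelihood adjusted p = 0.0548 for Tff3, 0.134 for Lyz1, 0.304 for Pyy, 0.294 for Itln1, 0.301 for Reg4 and 0.363 for Spink4). Agr2, at 245 to 532 across all 12, did not pass either (adjusted p = 0.683).

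Neighbouring nucleoside diphosphate kinase genes moved in opposite directions. Nme2 stood at 530, 319 and 363 CPM in the palmitic acid controls and at 82.8 to 169 in the carmofur controls (log2 fold change -1.63, adjusted p = 6.63e-07), while the predicted gene Gm20390, which shares reads with it, stood at 403, 522 and 503 CPM against 845 to 1331 (1.20, adjusted p = 1.59e-06). Summed with Nme1 and their copies, the log2 fold change was 0.17 (adjusted p = 0.747).

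Called genes were shorter than the genes tested. The median merged exon length was 2002 bases for those lower in the carmofur controls and 3413 for those higher, against 4267 for all genes tested, and their median expression was 382 and 303 CPM against 13.8. With offsets for length and GC content, 353 genes were called, 309 of them among the 375.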
